A study of Saccharomyces cerevisiae and Saccharomyces pastorianus with 78 samples.

Results

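The CYSTM genes of budding yeast encode short proteins with a cysteine-rich, membrane-associated tail. The 5 members followed here were chosen by systematic name from a gene table of *Saccharomyces cerevisiae* BY4741 with 7127 rows: CPP3 (YDR034W-B), MNC1 (YBR056W-A), YDL012C, CPP2 (YDR210W) and CPP1 (YBR016W). They were proposed after CPP3 had stood out in SDS at 0.5 to 4 h, so the members' values at those times are given as a description, with no test. Of the 5, 4 had counts in the libraries and passed the filter on low counts, and CPP2 had 0 counts throughout.

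BY4741 is a haploid laboratory strain of mating type a, labelled wild type in this study. It was grown in YPD, a rich glucose medium, at 25 °C and split into 2 aliquots at an OD595 of about 0.1. The control was taken from the aliquot that then received 7% EtOH, and the other aliquot received 0.01% SDS, an anionic detergent. Samples of each aliquot came from 6 times after the addition (0.5, 1, 2, 4 and 8 h, then 20 h), which with the control gave 13 groups of 3 biological replicates and 39 libraries of poly(A) RNA. The comparisons of EtOH and of SDS with the control thus share its 3 libraries, and no control was drawn from the SDS aliquot. No untreated culture was sampled later, so time after addition and time in culture cannot be told apart.

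Libraries held 3105804 to 21167236 counts, with a median of 7706767. The smallest and the largest were both of EtOH 8 h, replicates 3 and 2. The deleted strain markers LEU2, MET17 and URA3 had 0 counts in all 39 libraries, and HIS3, partly deleted in this strain, had 310 to 2650. CPM is the count scaled to the size of the library after TMM normalization. In the controls, STE2, the alpha-factor receptor gene of a cells, stood at 619.9 to 685.8 CPM, and STE3, the a-factor receptor gene of alpha cells, at 1.23 to 1.46 CPM. The other a-cell genes MFA1, MFA2, BAR1 and STE6 had 65.3 CPM or more, and the alpha-factor genes had 9.28 CPM or less. These genes moved with the treatments. All 5 a-cell genes fell at SDS 4 h, by log2 changes of -2.69 to -1.61, and at EtOH 20 h, by -1.75 to -1.19, while STE3 rose by 2.04 and 2.52 to levels of at most 9.51 CPM in any library. Whether this has a part in the members' values was not tested. Within a group, the least alike libraries were EtOH 20 h replicates 1 and 3 (Pearson r 0.943 across genes), and the members' EtOH 20 h results against the control and against SDS are given with and without replicate 3.

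A CYSTM protein sits in the plasma membrane through its C-terminal tail, where a run of cysteines lies next to hydrophobic residues. Cysteines beside a membrane can be acylated with palmitate by DHHC palmitoyltransferases, and cysteine-rich stretches of other small proteins, such as metallothioneins, bind metal ions. The cellular role of the yeast members is little known.

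All 5 genes are short, and in each the cysteine codons crowd towards the 3′ end. In build R64, CPP3 lies on chromosome IV at 521314 to 521469 on the forward strand, and its single coding exon holds 51 codons before the stop, of which 9 (17.6%) encode cysteine and 7 fall in the last 20. MNC1, on chromosome II at 351255 to 351455 on the forward strand, has 66 codons with 14 for cysteine (21.2%), 6 of them in the last 20. CPP2, on chromosome IV at 871074 to 871301 on the forward strand, has 75 codons with 7 for cysteine (9.33%), 6 of them in the last 20. YDL012C, on chromosome IV at 431108 to 431517 on the reverse strand, is split by an intron of 86 bases and has 107 codons, with all 5 cysteine codons in the last 20. CPP1, on chromosome II at 270247 to 270633 on the forward strand, has 128 codons, and again all 5 cysteine codons lie in the last 20.

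By identity over aligned columns, gaps included, 2 pairs of coding sequences stood highest. CPP3 and MNC1 were identical at 59.9% of aligned columns and YDL012C and CPP1 at 60.3%, while the other 8 pairs shared 35.7% to 54.7%. Unequal length lowers this measure, as for CPP3 and CPP1, of 156 and 387 bases, at 35.7%. No stretch of 50 bases of any member occurred a second time in the genome, so none has a near-identical copy at that length. The coding sequences of CPP3 and MNC1, the related pair on which most of the results turn, are shown from RefSeq build R64 with their cysteine codons in capitals:
CPP3: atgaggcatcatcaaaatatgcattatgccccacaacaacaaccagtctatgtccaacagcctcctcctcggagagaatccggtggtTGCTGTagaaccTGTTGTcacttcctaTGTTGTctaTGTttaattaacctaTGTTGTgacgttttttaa
MNC1: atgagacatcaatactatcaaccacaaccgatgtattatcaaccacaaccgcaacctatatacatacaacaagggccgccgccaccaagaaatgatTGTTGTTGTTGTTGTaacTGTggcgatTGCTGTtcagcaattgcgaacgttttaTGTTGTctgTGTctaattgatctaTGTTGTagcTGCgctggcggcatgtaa

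In CPP3 the cysteine codons form 4 doublets and a single codon, spaced through the last part of the gene, and MNC1 opens its cysteine stretch with 5 in a row.

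Before the addition CPP1 and YDL012C were well expressed, and MNC1 and CPP3 were low. Genes are compared here per kb of coding length, a rough scale. On it, the control level was 301.1 ± 24.3 CPM for CPP1, 185.4 ± 4.46 for YDL012C, 10.2 ± 5.27 for MNC1 and 8.73 ± 0.254 for CPP3 (SD, n = 3). The last 2 could not be placed in order, since the SD of MNC1 spanned the difference. At SDS 0.5, 1, 2 and 4 h CPP3 had the highest mean per kb of the members, from 334.8 ± 20.2 CPM at 1 h to 575.1 ± 81.2 CPM at 4 h. At 1 h it lay beside CPP1, which stood at 319.1 ± 29.9 CPM, and the SDs overlapped. By 8 h in SDS CPP1 was again first at 404.2 ± 22.8 CPM, with CPP3 at 145.2 ± 32.9. In all 6 EtOH groups the means ran in the order CPP1, YDL012C, CPP3, MNC1. The SDs of CPP3 and MNC1 overlapped at 0.5, 1, 2 and 4 h, and those of CPP1 and YDL012C at 2 and 20 h. The first place of CPP3 at SDS 0.5, 1, 2 and 4 h rests on division by coding length, 156 bases against 387 for CPP1. No allowance was made for read length. Undivided, the means at these 4 times were 160.6, 123.5, 132.9 and 120.7 CPM for CPP1 and 76.4, 52.2, 78.8 and 89.7 for CPP3.

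**Figure D1:**
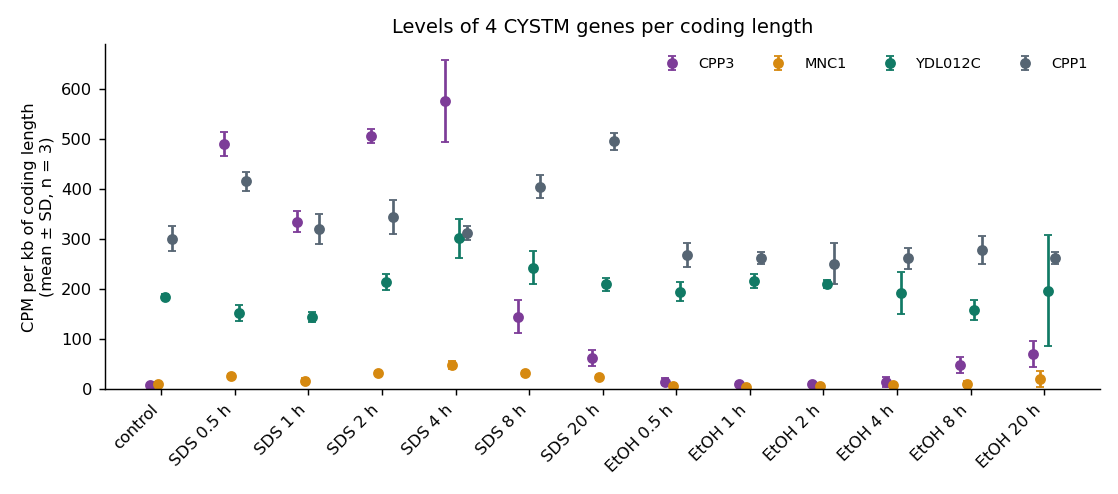
Level of 4 CYSTM genes in each of the 13 groups, as CPM per kb of coding length (linear axis; points are means and bars SD of n = 3 libraries). CPP3 lies near 0 in the control at 8.73 and reaches 575.1 at SDS 4 h, while CPP1 stays between 251.1 and 495.2 in every group.

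CPP3 in SDS. CPP3 was barely detected before the addition and was higher in every SDS library. The control libraries had 1.35, 1.33 and 1.41 CPM, which are 11, 10 and 10 counts. At SDS 0.5 h the libraries had 80.7, 74.0 and 74.5 CPM, and at 1 h 49.6, 55.7 and 51.3 CPM. At 2 h they had 77.2, 81.3 and 77.8 CPM, and at 4 h 75.8, 92.8 and 100.6 CPM. All 12 of these libraries lay far above all 3 controls, and the 3 libraries of 1 h lay below those of 0.5, 2 and 4 h.

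The mean of CPP3 was 56.1-fold over the control at 0.5 h, 38.4-fold at 1 h, 57.9-fold at 2 h and 65.9-fold at 4 h. These are the contrasts from which the members were proposed, so their size is a description and carries no test. RNA of the whole culture was sequenced, and a higher level in every cell cannot be told apart from a larger share of cells that express the gene. Of all 6101 genes tested, 19.1%, 11.3%, 9.47% and 10.5% were called at these 4 times, where a call is an adjusted p under 0.05 with at least a 2-fold change.

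Later in SDS the level of CPP3 went down without returning to the control. At 8 h the libraries had 16.9, 24.2 and 26.9 CPM, and at 20 h 12.7, 9.03 and 7.85 CPM. None overlapped the controls, nor did 20 h overlap 8 h. Against the control, CPP3 rose by a log2 change of 4.04 ± 0.34 (SE) at 8 h (edgeR adjusted p = 4.57e-11) and 2.84 ± 0.38 at 20 h (edgeR adjusted p = 4.96e-07). From 8 to 20 h it fell by 1.19 ± 0.25 on the log2 scale (edgeR adjusted p = 0.00095), a step in which 2.03% of all genes were called.

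CPP3 in EtOH. CPP3 rose late in the EtOH course, at 8 and 20 h. At 0.5 h the libraries had 2.20, 3.66 and 1.52 CPM, at 1 h 1.54, 2.38 and 1.04 CPM, at 2 h 1.22, 2.33 and 1.66 CPM, and at 4 h 3.65, 2.41 and 0.544 CPM. These values rest on 4 to 30 counts a library, and at 1, 2 and 4 h they fell on both sides of the controls. At 0.5 h all 3 lay above them, with a log2 change of 0.87 ± 0.48 that did not pass (edgeR adjusted p = 0.239).

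At 8 h in EtOH the libraries of CPP3 had 9.11, 8.88 and 4.72 CPM, from 68, 225 and 17 counts. At 20 h they had 7.40, 9.99 and 15.4 CPM. All 6 lay above every control and every earlier EtOH library. Against the control, CPP3 rose 5.56-fold at 8 h (log2 change 2.57 ± 0.38, edgeR adjusted p = 1.19e-06) and 8.02-fold at 20 h (log2 change 2.998 ± 0.37, edgeR adjusted p = 5.81e-08). Without EtOH 20 h replicate 3, the log2 change at 20 h was 2.66 ± 0.39. The step from 4 to 8 h, which uses no control library, was a rise of 1.89 ± 0.35 (edgeR adjusted p = 0.000342). In a fit of only the 6 libraries of that step, the adjusted p was 0.0546.

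**Figure D2:**
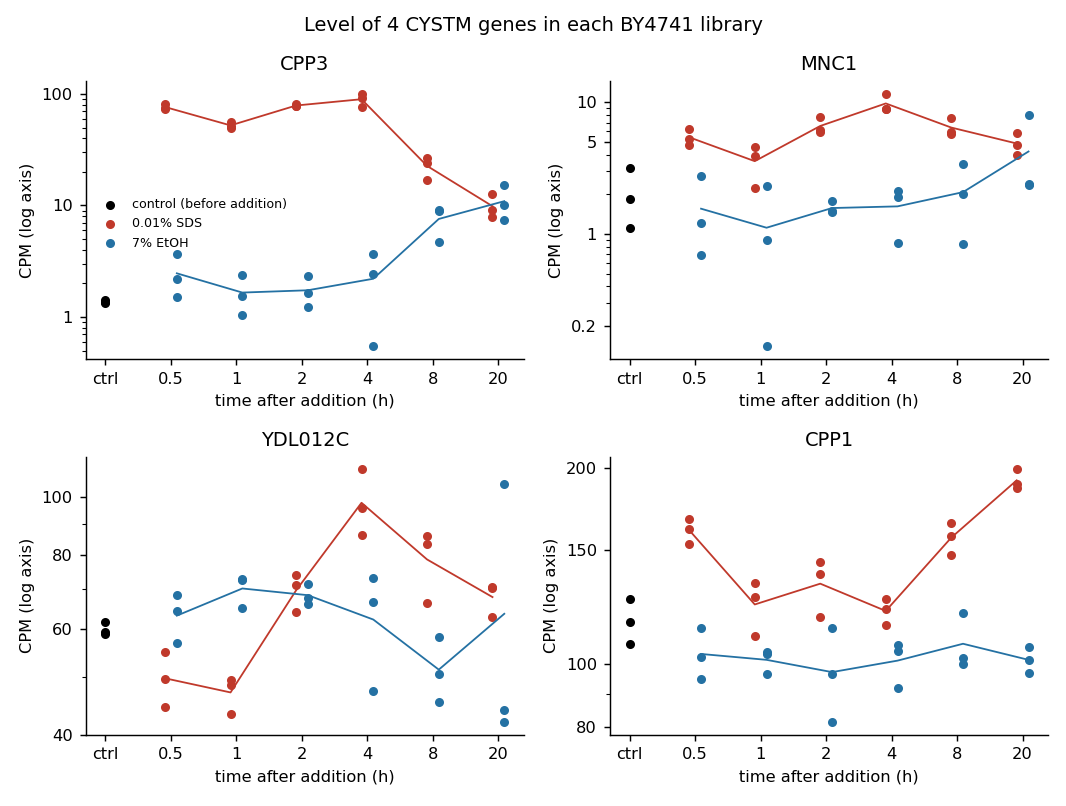
CPM of CPP3, MNC1, YDL012C and CPP1 in each of the 39 libraries (log axis, scaled separately per gene) by time after the addition; points are libraries, lines join group means, and black points are the 3 controls. The SDS libraries of CPP3 stand at 49.6 to 100.6 CPM through 4 h, and its EtOH libraries at 8 and 20 h lie above all earlier EtOH libraries.

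The courses of CPP3 in the 2 stresses met at the end. At 8 h the level was lower in EtOH than in SDS by 1.47 ± 0.25 on the log2 scale, an ethanol minus SDS value of -1.47 (edgeR adjusted p = 1.25e-05), and the libraries did not overlap. At 20 h the libraries of the stresses overlapped, with means of 10.9 ± 4.07 CPM in EtOH and 9.85 ± 2.51 CPM in SDS (SD, n = 3). Their difference was 0.15 ± 0.27 on the log2 scale (edgeR adjusted p = 0.638), which does not show that the levels were equal. Without EtOH 20 h replicate 3 it was -0.18 ± 0.28 (edgeR adjusted p = 0.613). Of all genes, 8.67% were called between the stresses at 8 h and 13.8% at 20 h.

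MNC1. MNC1, the member with the highest coding identity to CPP3, was also higher in SDS than before it. The controls had 1.10, 3.19 and 1.83 CPM, from 9, 24 and 13 counts. At SDS 0.5 h the libraries had 5.26, 4.78 and 6.23 CPM, and at 1 h 2.23, 4.55 and 3.93 CPM. At 2 h they had 5.96, 7.71 and 6.15 CPM, and at 4 h 8.92, 8.84 and 11.6 CPM. Only the 1 h libraries overlapped the controls. Means were 2.66-fold over the control at 0.5 h, 1.75-fold at 1 h, 3.24-fold at 2 h and 4.80-fold at 4 h, given with no test as above. As for CPP3, the 1 h mean was the lowest of the 4 and the 4 h mean the highest.

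At SDS 8 h the MNC1 libraries had 5.91, 7.62 and 5.76 CPM, all above the controls, and the gene rose by a log2 change of 1.65 ± 0.46 (edgeR adjusted p = 0.00493). At 20 h they had 4.73, 5.86 and 4.00 CPM, again all above the controls, with a log2 change of 1.27 ± 0.47 that passed narrowly (edgeR adjusted p = 0.0367). The call at 20 h was lost when control replicate 1 or 3, or SDS 20 h replicate 1 or 2, was left out, with edgeR adjusted p of 0.168, 0.0951, 0.0679 and 0.129. Between 8 and 20 h no change passed (log2 change -0.38 ± 0.41, edgeR adjusted p = 0.562).

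In EtOH, MNC1 did not pass at any single time. Through 8 h its 15 libraries ran from 0.14 CPM, which was 1 count in EtOH 1 h replicate 2, to 3.39 CPM, and each group overlapped the controls. At 20 h the libraries had 2.38, 2.36 and 7.95 CPM. Replicate 3 alone stood above the controls, and the log2 change was 1.07 ± 0.48 (edgeR adjusted p = 0.0557). Without replicate 3 it was 0.22 ± 0.52 (edgeR adjusted p = 0.737), while without EtOH 20 h replicate 1, EtOH 20 h replicate 2 or control replicate 2 the gene was called, with changes of 1.35, 1.37 and 1.55. Its EtOH 8 h libraries held 15, 86 and 3 counts. Against SDS, MNC1 was lower in EtOH at 8 h, with an ethanol minus SDS log2 change of -1.33 ± 0.42 (edgeR adjusted p = 0.0108). The libraries did not overlap. At 20 h this difference was -0.20 ± 0.43 (edgeR adjusted p = 0.713), and without EtOH 20 h replicate 3 it was -1.05 ± 0.46 (edgeR adjusted p = 0.0528).

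YDL012C. YDL012C was expressed at a middle level in every group, and none of its tested changes reached the limit. The controls had 59.0, 61.7 and 59.5 CPM. At SDS 0.5 h the libraries had 49.7, 44.6 and 54.9 CPM and at 1 h 43.4, 49.3 and 48.5 CPM, all below the controls. At 4 h they had 86.4, 111 and 95.6 CPM, all above the controls. The SDS means were thus 0.828-fold of the control at 0.5 h, 0.784-fold at 1 h and 1.63-fold at 4 h, given with no test. The log2 changes at 0.5 and 1 h were small beside their SE, at -0.27 ± 0.20 and -0.35 ± 0.20. At 0.5 h the sign was the opposite of that of CPP3 and MNC1, and this was not tested.

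At SDS 8 and 20 h YDL012C differed from the control by log2 changes of 0.39 ± 0.20 and 0.18 ± 0.20 (edgeR adjusted p = 0.123 and 0.516). In EtOH the log2 change lay between -0.24 and 0.23 at all 6 times, with edgeR adjusted p of 0.326 or more. At EtOH 20 h the libraries of YDL012C had 44.0, 42.1 and 105.1 CPM, and replicate 3 alone lay above the controls. Without that library the log2 change at 20 h was -0.48 ± 0.14 in place of 0.09 ± 0.20 (edgeR adjusted p = 0.00443), still under 2-fold. At 8 h the level was lower in EtOH than in SDS by 0.63 ± 0.20 on the log2 scale, an ethanol minus SDS change of -0.63 (edgeR adjusted p = 0.0104), which is under the 2-fold limit. At 20 h that change was -0.09 ± 0.20 (edgeR adjusted p = 0.714) with all libraries and -0.66 ± 0.14 (edgeR adjusted p = 0.000181) without EtOH 20 h replicate 3, again under 2-fold.

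CPP1. CPP1 had the highest control level of the family and kept it within 2-fold in every group. The controls had 126.1, 116.2 and 107.3 CPM. At SDS 0.5 h the libraries had 167.4, 153.0 and 161.4 CPM, all above the controls, and means at 1, 2 and 4 h were 123.5, 132.9 and 120.7 CPM. At SDS 8 h they had 164.8, 147.2 and 157.3 CPM, and at 20 h 199.2, 186.3 and 189.4 CPM, again all above the controls. The log2 change was 0.43 ± 0.10 at 8 h (edgeR adjusted p = 0.000927) and 0.72 ± 0.10 at 20 h (edgeR adjusted p = 8.39e-07). Both are past the p limit and short of 2-fold, so neither is a call.

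The SDS course of CPP1 had 2 high points, 0.5 h and 20 h, while those of CPP3 and MNC1 had their highest means at 4 h. In EtOH the means of CPP1 lay between 97.2 and 107.5 CPM, below the control mean of 116.5 at every time, with log2 changes from -0.26 to -0.13 and edgeR adjusted p from 0.0532 to 0.292. At 20 h the 3 EtOH libraries (97.0, 101.5 and 106.1 CPM) did not overlap those of SDS, and the ethanol minus SDS log2 change was -0.92 ± 0.10 (edgeR adjusted p = 3.65e-09). At 8 h it was -0.55 ± 0.10 (edgeR adjusted p = 3.1e-05). Neither reached 2-fold. Without EtOH 20 h replicate 3 the 20 h change was -0.95 ± 0.11 against SDS and -0.23 ± 0.11 against the control, where it was -0.20 ± 0.10 with all libraries.

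**Figure D3:**
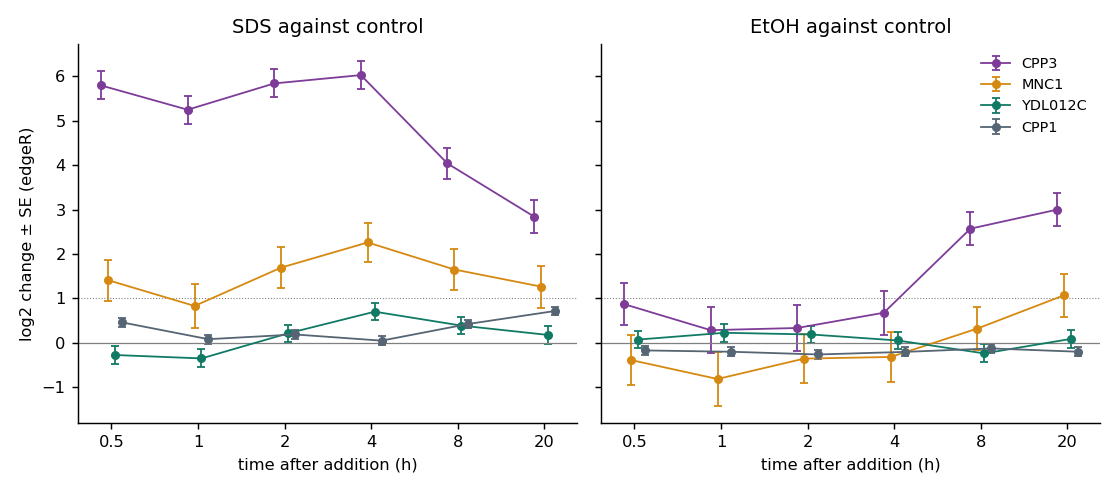
Log2 change of CPP3, MNC1, YDL012C and CPP1 against the control by time in SDS (left) and EtOH (right), with edgeR SE as bars; the dotted line marks a log2 change of 1. CPP3 lies above the line at all 6 SDS times and at 8 and 20 h in EtOH, where it reaches 2.57 and 2.998; SDS 0.5 to 4 h is shown as a description.

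CPP2. CPP2 had 0 counts in all 39 libraries, which would allow up to 3 counts each, or 0.833 CPM in the smallest library. The gene lies wholly inside YDR209C, an open reading frame on the opposite strand at 871036 to 871449 that had 215 to 1380 counts per library. YDR209C extends 38 bases before and 148 bases after CPP2. All 8 coding genes of the table that lie wholly inside another gene on the opposite strand had 0 counts in every library, against 80 of 6000 other coding genes. How reads were assigned by strand, or where genes overlap, is not given in the sources used here, so the 0 says nothing of the RNA of CPP2. YDR209C itself stood at 39.1 ± 3.44 CPM in the control, 67.7 ± 2.00 CPM at SDS 0.5 h and 71.2 ± 2.96 CPM at SDS 20 h, and whether these reads came from one gene or the other cannot be told apart. Its log2 changes of 0.79 ± 0.14 and 0.86 ± 0.14 had edgeR adjusted p of 6.62e-06 and 8.32e-06 and were under 2-fold.

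Counts over the family. Of 24 tests of the 4 measured members against the control in EtOH, 2 were calls, both rises of CPP3, and 5 had an unadjusted p under 0.05. Of all 6101 genes, 1674 had such a p at EtOH 0.5 h and 3814 at 20 h, the fewest and the most of the 6 times. The share of all genes called was 2.18%, 2.34%, 2.84% and 5.02% at EtOH 0.5, 1, 2 and 4 h, where edgeR and DESeq2 called no member, and 10.2% and 13.9% at 8 and 20 h, where each time had 1 of 4. Over the 2 late SDS times, 4 of 8 tests were calls, all rises of CPP3 and MNC1, beside 6.15% of all genes at 8 h and 4.67% at 20 h. Tests against the control, in SDS and in EtOH, used the same control libraries as the contrasts from which the members were proposed. They are thus not independent of that choice. The median log2 change of the 4 members was 1.04 at SDS 8 h and 0.99 at 20 h, against 0.01 for all genes at each time. Over the EtOH course as a whole, the F test over 6 times called 2 of 4 members, CPP3 (adjusted p = 1.26e-09 in edgeR) and MNC1 (adjusted p = 0.0249 in edgeR), beside 18.1% of all genes. MNC1 was not called without EtOH 20 h replicate 3.

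Between neighbouring EtOH times, 1 of 20 tests was a call, the rise of CPP3 from 4 to 8 h, a step with 1.93% of all genes called. The shares in the other steps were 0% from 0.5 to 1 h, 0% from 1 to 2 h, 0.311% from 2 to 4 h and 3.28% from 8 to 20 h. In the first 2 steps both edgeR and DESeq2 called no gene, and 85 and 190 genes had an unadjusted edgeR p under 0.05. Between the stresses at 8 and 20 h, 2 of 8 tests were calls, CPP3 and MNC1 at 8 h, beside 8.67% and 13.8% of all genes. Of the 8, 5 had an adjusted p under 0.05, all with the lower level in EtOH. An unadjusted p under 0.05 was also held by 5, beside 3217 of all 6101 genes at 8 h and 3810 at 20 h.

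Over the 13 group means, Pearson's r on the log2 scale was 0.887 between CPP3 and MNC1, 0.674 between MNC1 and CPP1 and 0.551 between CPP3 and CPP1. YDL012C had r of 0.061, 0.341 and 0.064 with CPP3, MNC1 and CPP1. YDL012C and CPP1, a close pair in sequence, were thus among the least alike in course. The groups share libraries of 1 control and come from 2 courses, so these values only describe. The r of CPP3 with MNC1 also takes in SDS 0.5 to 4 h, and at EtOH 8 h CPP3 was 5.56-fold over the control while MNC1 was 1.02-fold.

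Bases before the gene starts. The 250 bases before and 50 after each start were searched on both strands for motifs of stress factors. AGGGG, the stress response element bound by Msn2 and Msn4, occurred 3 times before CPP3, at 214, 110 and 101 bases from the start and always on the opposite strand. It occurred 1 time before CPP1, at 81 bases and on the opposite strand, and not in the windows of MNC1, YDL012C or CPP2. Of 6001 coding gene windows of the same length, 21.6% held at least 1 match, 2.93% at least 2 and 0.483% at least 3. The windows of CPP3 and MNC1, the members called in both late SDS comparisons, are shown in RefSeq build R64 on the gene's strand, at chrIV:521064-521363 and chrII:351005-351304, with matches in capitals:
CPP3 window: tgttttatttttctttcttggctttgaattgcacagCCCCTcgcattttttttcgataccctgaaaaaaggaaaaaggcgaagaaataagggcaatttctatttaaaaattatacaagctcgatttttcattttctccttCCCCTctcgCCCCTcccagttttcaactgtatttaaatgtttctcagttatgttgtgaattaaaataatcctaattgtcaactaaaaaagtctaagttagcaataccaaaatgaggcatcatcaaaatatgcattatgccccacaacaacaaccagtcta
MNC1 window: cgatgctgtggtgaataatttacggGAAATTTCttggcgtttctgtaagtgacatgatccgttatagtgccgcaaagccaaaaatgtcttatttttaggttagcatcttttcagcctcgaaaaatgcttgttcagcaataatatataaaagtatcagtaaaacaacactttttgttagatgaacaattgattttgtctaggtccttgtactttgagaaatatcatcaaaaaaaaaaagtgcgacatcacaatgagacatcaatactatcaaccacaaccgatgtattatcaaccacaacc

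In the CPP3 window the capitals read CCCCT, the stress response element as seen from the other strand, and the matches at 110 and 101 bases lie 4 bases apart. The capitals of MNC1 mark GAANNTTC, a pair of inverted heat shock element units bound by Hsf1, at 225 bases. GAANNTTC also occurred 1 time each before CPP2, at 195 bases, and YDL012C, at 177 bases, where it overlaps a match of TTCNNGAA at 182 bases. Of all windows, 11.8% held GAANNTTC and 12.9% TTCNNGAA. TCCGNGGA, the Pdr1 and Pdr3 element found in 1.22% of windows, and TTACTAA, the Yap1 site found in 7.45%, matched in none of the 5. A match describes the letters and not binding.

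**Figure D4:**
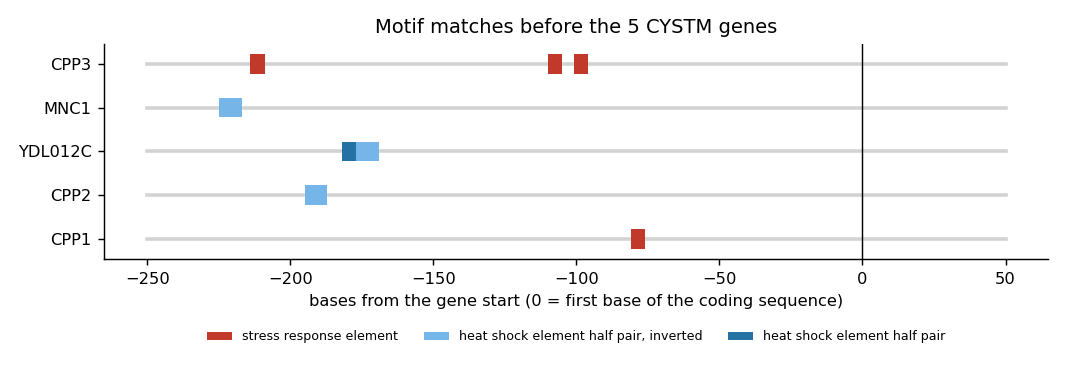
Position of motif matches in the window from 250 bases before to 50 bases after the start of each of the 5 genes (x axis in bases, 0 is the first coding base; grey lines are the windows searched). CPP3 holds 3 stress response elements, CPP1 holds 1, and MNC1, YDL012C and CPP2 hold heat shock element matches only.

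Next to the members lie unrelated genes. ARO3, a gene of aromatic amino acid synthesis, begins 346 bases downstream of CPP3 on the same strand. Its mean was 237.2 CPM in the control and 267.2 CPM at SDS 4 h, where CPP3 was 65.9-fold over the control.

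Genes of like course. Over the 13 group means and 5272 genes, the courses most like that of CPP3 were those of PIP2, a transcription factor of oleate-induced genes (r = 0.984), UBC5, a ubiquitin-conjugating enzyme gene (r = 0.981), and FMP46, which encodes a mitochondrial protein (r = 0.978). Their range was far smaller. PIP2 stood at 52.1 CPM in the control and 101.4 CPM at SDS 4 h, and UBC5 at 16.01 and 59.1 CPM. MNC1 was most like PTP2, a phosphotyrosine phosphatase gene of the stress MAP kinase pathways (r = 0.965), TOG1, a transcription factor of oleate use (r = 0.964), and GYP7, a GTPase-activating protein gene of vacuolar traffic (r = 0.963). YDL012C was most like PCL9, a cyclin gene (r = 0.887), LEU3, a regulator of leucine synthesis (r = 0.879), and REV1, a translesion DNA polymerase gene (r = 0.838). CPP1 was most like ARO3 (r = 0.917), TMN2 (r = 0.908) and RCF3 (r = 0.903). By Spearman's rank correlation 4 of these 12 genes remained among the 3 most alike. None of them was a gene named for CPP3, where PIP2, UBC5 and FMP46 ranked 10, 49 and 10.

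Genes around the family. Genes of the enzymes that attach palmitate to cysteines stayed mostly within 2-fold, with log2 changes from -0.72 to 1.12. Of 96 tests of 8 measured palmitoyltransferase genes against the control, 1 (1.04%) was a call, beside 8.14% of tests over all genes. The call, in 12 comparisons, was of ERF2, which encodes a subunit of the Ras palmitoyltransferase. ERF2 rose from 17.9 ± 1.95 to 38.9 ± 2.81 CPM at EtOH 20 h (log2 change 1.12 ± 0.13, edgeR adjusted p = 2.3e-08). Without control replicate 3 the list had 4 calls, and without EtOH 8 h replicate 1, EtOH 20 h replicate 2, SDS 2 h replicate 2 or SDS 20 h replicate 3 it had 2. Of the 6 measured genes of the GET pathway, which inserts tail-anchored proteins into membranes, edgeR and DESeq2 called none in 72 tests. An unadjusted edgeR p under 0.05 was found in 32 of these tests. Of all 6101 genes, 1674 (EtOH 0.5 h) to 3855 (SDS 0.5 h) had such a p in the same comparisons. The log2 changes of the GET genes ran from -0.83 to 0.58, and at EtOH 20 h their median was -0.45 against 0.03 for all genes.

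Among 15 measured metal ion transport genes there were 17 calls in 180 tests, 9 rises and 8 falls, with the most at SDS 1 h. That is 9.44% of the tests, near the 8.14% of tests called over all genes in the same 12 comparisons. There FET4, a low-affinity iron transporter gene, fell from 319.6 ± 30.7 to 105.0 ± 4.70 CPM (log2 change -1.61 ± 0.17), and ZRC1, a vacuolar zinc transporter gene, from 469.4 ± 19.6 to 212.6 ± 13.5 CPM (log2 change -1.14 ± 0.12). The phosphate transporter gene PHO84, whose product also carries manganese, rose there by 1.31 ± 0.20 on the log2 scale. Of 13 other genes for membrane proteins, 4 rose and 2 fell at SDS 0.5 h, with a list median of -0.001 against 0.023 for all genes and 19.1% of all genes called. HSP12, a membrane-associated stress protein gene, rose there by a log2 change of 8.00 ± 0.56. RTA1 rose there by 4.21 ± 0.13 on the log2 scale and MRH1 fell by 2.34 ± 0.28.

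Of 25 general stress genes, 16 rose and none fell at SDS 0.5 h, 9, 12 and 15 rose at 1, 2 and 4 h, and 6 and 4 rose at 8 and 20 h, with 2 falls at 8 h. Over all 12 comparisons 42.3% of this list's tests were calls, and the shares of all genes at each time are those given above (19.1%, 11.3%, 9.47% and 10.5% at the first 4 SDS times). The median of the list dipped at 1 h and was highest at 4 h, a log2 change of 1.46. At the first 4 SDS times the means of CPP3, MNC1 and YDL012C were also lowest at 1 h and highest at 4 h. The mean of CPP1 was lowest at 4 h. From 8 to 20 h the list median rose from 0.14 to 0.50, while CPP3 fell. The first 4 times are those from which the members were proposed, so this likeness is a description. HXK1, a hexokinase gene, rose from 77.1 ± 29.9 to 689.5 ± 110.1 CPM at SDS 0.5 h, TFS1 from 33.3 ± 1.82 to 285.1 ± 29.4 CPM, and HSP26, a small heat shock protein gene, from 7.97 ± 0.637 to 69.6 ± 10.5 CPM. In EtOH, 7, 7, 7 and 6 of the 25 rose from 0.5 to 4 h, when no CYSTM gene was called, and 10 and 13 rose at 8 and 20 h, while 3, 2, 1, 3, 3 and 1 fell at the 6 times. Their median log2 change in EtOH was -0.54 at 0.5 h and 1.10 at 20 h. These lists were written with earlier results of the data known, so their counts are a description.

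**Figure D5:**
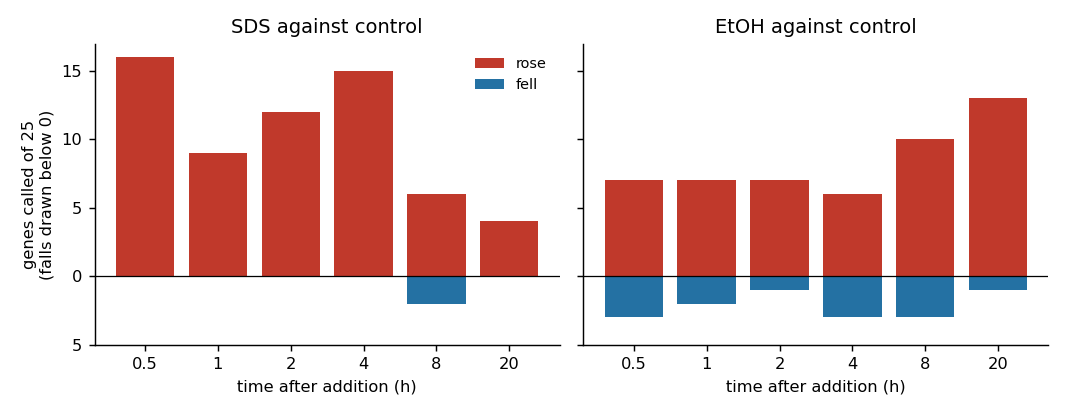
Number of 25 general stress genes that rose (above 0) or fell (below 0) against the control at each time in SDS and EtOH, by edgeR adjusted p and the 2-fold limit. In SDS 16 rose at 0.5 h and 15 at 4 h, and in EtOH the most, 13, rose at 20 h.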

How the data were processed

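Poly(A) RNA of 39 BY4741 samples was analysed; the lager yeast of the same series was not used here, since its gene identifiers are not paired with names. Per the submitters' processing notes, FastQC 0.11.9, Trimmomatic 0.39, STAR 2.7.8, featureCounts 2.0.1 and build R64 were used, with no role or order given. The authors deposited raw counts per gene, whole numbers without normalization; for strandedness and overlapping genes the setting is not given in the sources used here.

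These counts went into edgeR 4.0.16 (R 4.3.3, limma 3.58.1). Its filterByExpr with a minimum count of 10 kept 6101 of 7127 rows. TMM set the library sizes, and 1 quasi-likelihood fit held all 39 libraries and a term for every group (26 residual degrees of freedom). P-values were adjusted by Benjamini-Hochberg over all genes tested. A gene was called at an adjusted p under 0.05 with an absolute log2 change of at least 1. SE was taken as the size of the log2 change divided by the root of its F statistic. The fit weights libraries by depth, so its log2 change can differ from the ratio of mean CPM. Reads carry no molecular identifiers, so the floor of 3 counts covers counting error only. The model was tested on simulated data.

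The members and gene lists were chosen with earlier results of these data known. Named genes are all members, for each member the 3 genes with the highest r over the 13 group means (mean of at least 10 CPM, log2 of CPM plus 0.5), up to 3 called genes per list at the time with most calls, and neighbouring genes. The marker genes are strain and mating type markers. Sequences and coordinates come from RefSeq build R64. Alternatives were DESeq2 1.42.0, RLE scaling, other low-count filters, a replicate block, fits of only the libraries compared and leaving out each library.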

Additional observations from a re-analysis of the deposited data

Results flagged for a closer look

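Among the members, 2 were called between the stresses at 8 h by a test of the difference itself, with at least a 2-fold change. YDL012C and CPP1 also passed the p limit there (edgeR adjusted p = 0.0104 and 3.1e-05). Their ethanol minus SDS log2 changes of -0.63 and -0.55 were short of 2-fold. CPP3 stood at 7.57 ± 2.47 CPM in EtOH and 22.7 ± 5.13 CPM in SDS (SD, n = 3), an ethanol minus SDS log2 change of -1.47 (edgeR adjusted p = 1.25e-05), with all 3 EtOH libraries below all 3 SDS libraries. MNC1 stood at 2.08 ± 1.28 and 6.43 ± 1.03 CPM, a log2 change of -1.33 (edgeR adjusted p = 0.0108), also with all 3 EtOH libraries below. Leaving out 1 library at a time, these changes ran from -1.65 to -1.33 for CPP3 and from -2.001 to -1.14 for MNC1. The EtOH 8 h libraries, replicates 1 to 3, held 68, 225 and 17 counts of CPP3 and 15, 86 and 3 of MNC1. Replicate 3 was the smallest of the 39 libraries, with MNC1 at the floor of 3 counts, and replicate 2 was the largest.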

How the results depend on the processing

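Of 1126 member values recomputed, 1117 were judged the same and no called change reversed. For tested comparisons, the same means called or not called as before, and an uncalled value could change sign. For comparisons given with no test, it means a shift smaller than the SD between replicates. DESeq2, RLE scaling and no low-count filter changed no member call. A stricter filter (10 CPM in 3 libraries) removed MNC1 and left 2 of 4 calls in late SDS, 1 of 2 between the stresses and 1 of 2 by the F test over EtOH. With only the libraries compared, that F test gave 1, the EtOH steps gave 0 of 1 member call, and all genes gave 0, 66 and 15 calls from 2 to 4, 4 to 8 and 8 to 20 h in EtOH, in place of 19, 118 and 200; such fits use fewer samples. Leaving out 1 library gave 1 to 2 members by the F test, 1 to 4 palmitoyltransferase calls (2 with no low-count filter, 1 as reported), and over all genes 0 to 4, 0 to 50, 67 to 181 and 152 to 309 calls from 1 to 2, 2 to 4, 4 to 8 and 8 to 20 h in EtOH. The highest palmitoyltransferase count came without control replicate 3. Spearman's correlation kept 4 of the 12 genes most alike in course, and none of those of CPP3. MNC1 in EtOH against SDS at 1 h was -2.80 without EtOH 1 h replicate 1, in place of -1.64. The cause of these moves was not tested. Whether replicate numbers pair the samples is not settled. Of 36 same-number correlations of deviations with the control, 14 were over 0.1 (-0.176 to 0.18), and different-number correlations were not computed for comparison. Times of an aliquot may come from the same culture, while the main fit takes the 39 libraries as independent. With a replicate block the member calls were 2, 4, 1, 1, 2 and 2 (EtOH, late SDS, EtOH steps, SDS 20 against 8 h, between stresses, F test), as without it. Depth limits CPP3 and MNC1 most, which had 24 counts or fewer in each control library.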
